A study of Mus musculus with 32 samples.

Results

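Of the 32 livers profiled in the series, the 9 taken 40 h after partial hepatectomy are described here. They were chosen by their labels as 5 livers with the Mx-Cre transgene (Cre plus) and 4 livers without it (Cre minus), and no measured value entered the choice. All 9 came from male C57BL/6 mice aged 3 months that were homozygous for a floxed Rps6 allele. The controls thus carried the floxed allele too and lacked the recombinase. Rps6 encodes a protein of the small ribosomal subunit. Cre was driven by the Mx promoter, which responds to interferon, and deletion was induced by injection of polyinosinic-polycytidylic acid, a double-stranded RNA that induces interferon, so recombination was not limited to hepatocytes by the promoter. The sources used here do not say whether Cre minus mice were injected or how long before surgery. In partial hepatectomy some lobes of the liver are resected, and the labels name no sham-operated group. Total RNA of each liver went, as biotin-labelled cRNA, to 1 Affymetrix array of 1 colour, and all levels below are RMA values on the log2 scale. The labels place livers A, B and C of each genotype in batch PHX3, and Cre minus D, Cre plus D and Cre plus E in batch PHX2, so values within PHX2 set 2 livers against 1 and those within PHX3 set 3 against 3. Separate mice are not stated in the labels, so p-values here measure only how far samples spread. That spread was estimated over all 32 arrays of the series, not over these 9 alone.

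After loss of liver mass, hepatocytes that had been quiescent re-enter the cell cycle, pass through G1 under the control of D-type cyclins and E2F factors, replicate their DNA and divide. Genes for DNA replication are switched on around the G1 to S transition, largely through E2F, and genes for mitosis later, largely through CHR promoter elements, which the DREAM and MuvB complexes bind, and CCAAT boxes, which NF-Y binds. Lowered ribosome production is known to free ribosomal proteins that bind Mdm2 and so stabilise p53, whose target Cdkn1a inhibits cyclin-dependent kinases. The comparison of the genotypes at 40 h asks how far this programme runs in regenerating liver in which Rps6 was deleted.

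The Rps6 probe set read 11.34, 11.48, 11.23 and 11.36 in Cre minus livers A to D and 7.57, 7.0, 7.05, 7.23 and 7.22 in Cre plus livers A to E. The groups did not overlap, and the difference was −4.10 (SE 0.15, adjusted p = 3.74e-17), or −4.13 within PHX2 and −4.14 within PHX3. A pseudogene, Rps6-ps4, shares the probe set in the annotation, and whether its probes fall inside the deleted sequence was not found in the sources used here. Albumin, the main secreted product of hepatocytes, read 13.76, 13.69, 13.73 and 13.72 in Cre minus livers and 13.35, 13.67, 13.65, 13.70 and 13.76 in Cre plus livers, so hepatocyte RNA was present in all 9 samples. Arrays of the Cre minus group correlated with their own group at a mean r of 0.978 to 0.986, and those of the Cre plus group at 0.943 to 0.963, the lowest being Cre plus D. Actb control probe sets, whose 3′ minus 5′ difference grows as RNA degrades, gave 1.01 ± 0.08 in Cre minus livers and 0.98 ± 0.16 in Cre plus livers (SD, n = 4 and 5).

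Between the genotypes at 40 h, 495 of 9249 probe sets passed limma's test at a Benjamini-Hochberg adjusted p under 0.05, which is 5.35%. By gene, with the brightest probe set standing for each of 6787 genes, 232 were lower in Cre plus livers (3.42%) and 163 higher (2.4%). Among these, 57 genes were at least 2-fold lower and 13 at least 2-fold higher. The median difference over all genes was −0.01. In 3.4% of genes all Cre plus livers lay below all Cre minus livers, and in 3.4% all lay above. The list counts below stand against these shares. Of the 495 probe sets 493 had the same sign within both batches. The calls were made on these same livers, so this agreement is a description and not a separate test. Without Cre plus D the count was 449, without Cre minus A 295 and without Cre minus C 318. The higher side changed most, from 211 probe sets to 94 without Cre minus C, 105 without Cre minus A and 131 without Cre plus E, whereas the lower side went from 284 to no fewer than 190. Each difference below is Cre plus minus Cre minus on the log2 scale with its standard error (SE), each p is adjusted over all 9249 probe sets, and "rose" and "fell" stand for Cre plus relative to Cre minus livers.

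**Figure D1:**
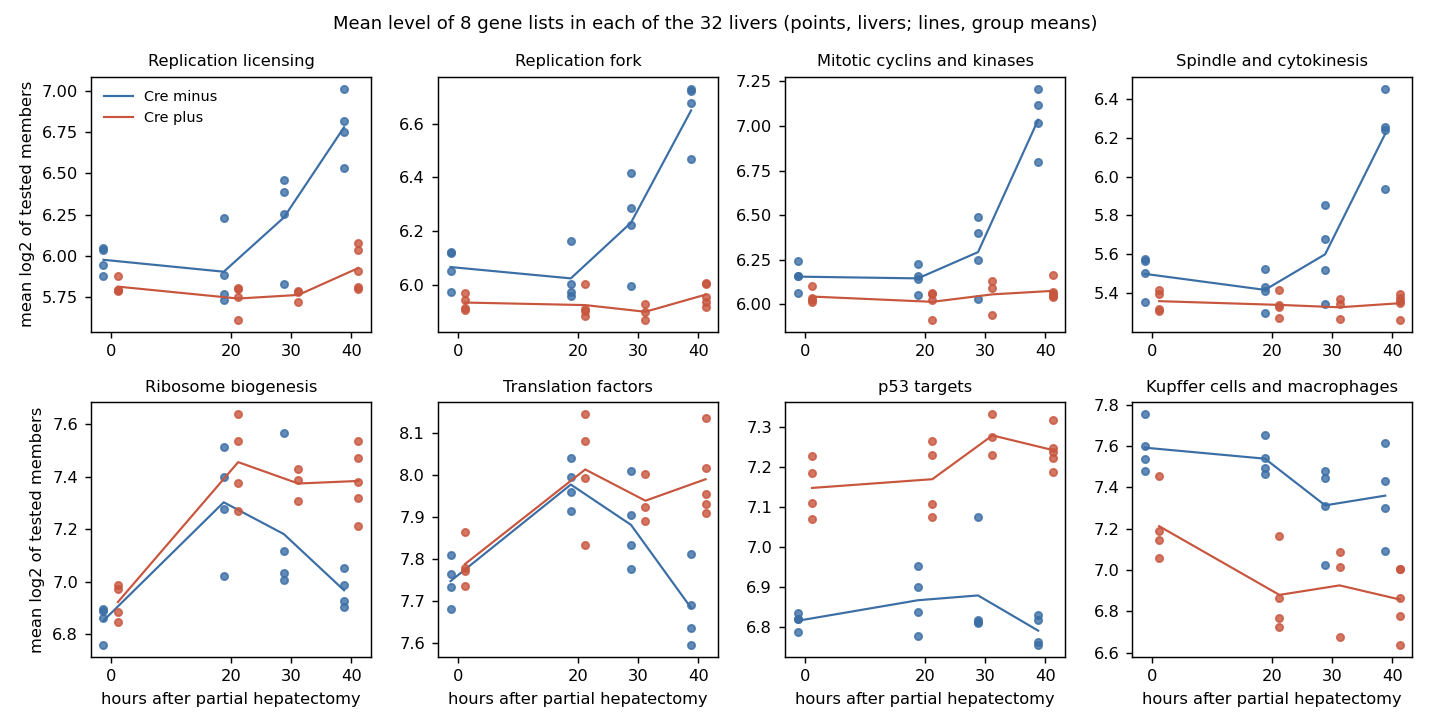
Mean log2 level of the tested members of 8 gene lists (vertical axis) in each of the 32 livers by hours after partial hepatectomy (horizontal axis), with Cre minus in blue, Cre plus in red and lines through the group means. In the 4 cell cycle panels the Cre minus livers reached their highest group mean at 40 h, whereas the 5 Cre plus livers of 40 h all lay below the 4 Cre minus livers of that time.

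Genes of DNA replication licensing, which load the MCM helicase onto origins before S phase, were in part lower. Of 15 tested members 9 fell and none rose, 12 had a negative difference and 3, the origin recognition genes Orc2, Orc4 and Orc5, a positive one, with a list median of −0.83 (−1.39 within PHX2 and −0.85 within PHX3), against 3.42% of all genes that fell. Of all 15 tested, 9 separated without overlap in the lower direction, against 3.4% of all genes. These were the same 9 members that fell, and calls and separation rest on the same livers. Mcm5, a subunit of the helicase, read 10.08, 9.86, 9.30 and 9.77 in Cre minus livers A to D and 7.54, 7.32, 7.55, 7.0 and 7.0 in Cre plus livers A to E. Every Cre plus liver lay more than 1 log2 unit under the lowest Cre minus liver, and the difference was −2.45 (SE 0.29, adjusted p = 1.5e-06), or −2.77 within PHX2 and −2.28 within PHX3. A second, dimmer Mcm5 probe set gave −0.01 and was not called, so the change rests on the brighter one.

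Cdc6, which recruits the helicase to the origin, read 6.16, 5.90, 5.80 and 7.13 in Cre minus livers and 4.55, 4.52, 4.70, 4.5 and 4.57 in Cre plus livers. The 5 Cre plus livers read close together and close to the means at 0 h, 4.76 in Cre minus livers and 4.54 in Cre plus. These values lay under the array medians (5.88 to 5.99), and how much of them is background was not tested. In Rrm2, Smc2, Aurka, Mad2l1, Ect2, Top2a, Rfc4, Prc1, Anln and D17H6S56E-5, among other genes described below, the Cre plus livers read under these medians too. In Ifrd1, which rose, the Cre minus livers did. The Cdc6 difference was −1.70 (SE 0.20, adjusted p = 1.84e-06), or −2.60 within PHX2 and −1.36 within PHX3. Cdt1, its partner in loading, fell by 1.17 with an adjusted p of 4.33e-08. The helicase subunits Mcm3 (−1.5), Mcm4 (−1.45) and Mcm7 (−1.09) fell as well, with adjusted p-values of 5.9e-06, 2.55e-05 and 0.000168. Among the Cre minus livers, Cre minus D was the highest for Cdc6, Mcm3, Mcm4 and Cdt1.

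At the replication fork, 19 of 24 tested genes fell and none rose, against 3.42% of all genes that fell. All 24 had a negative difference (median −0.55, or −0.69 within PHX2 and −0.49 within PHX3). Pcna, the sliding clamp that tethers DNA polymerases, read 8.77, 8.86, 7.92 and 8.60 in Cre minus livers and 6.11, 6.33, 6.78, 6.95 and 6.79 in Cre plus livers. The highest Cre plus value lay below the lowest Cre minus value, that of liver C, and the difference was −1.95 (SE 0.19, adjusted p = 6.92e-08), or −1.73 within PHX2 and −2.11 within PHX3. Fen1, the flap endonuclease that matures Okazaki fragments, differed by −1.79 (SE 0.31, adjusted p = 0.000411). Of the clamp loader, Rfc5 fell by 1.37 and Rfc4 by 1.36, and of the polymerase that primes each fragment, Prim1 fell by 0.99 and Pola1 by 0.92, with adjusted p-values between 7.83e-07 and 0.000478. Rfc5 also has a dimmer probe set that was not called (0.01).

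Among enzymes of deoxynucleotide supply, 4 of 10 tested genes fell and none rose, against 3.42% of all genes that fell. The 4 were both subunits of ribonucleotide reductase, Rrm2 and Rrm1, and the salvage kinases Dck and Tk1. Rrm2, the subunit whose amount is tied to S phase, read 8.25, 7.74, 7.39 and 7.02 in Cre minus livers and 4.47, 4.62, 5.07, 4.84 and 5.07 in Cre plus livers. The difference of −2.79 (SE 0.26, adjusted p = 4.33e-08) corresponds to a 6.9-fold lower level, and was −2.07 within PHX2 and −3.07 within PHX3. Dck differed by −1.49, Rrm1 by −1.34 and Tk1 by −1.28, with adjusted p-values of 3.63e-05, 4.37e-08 and 2.99e-05. For Rrm1 and Tk1 a second, dimmer probe set was not called (−0.16 and 0.30). All 10 differences were negative, and the 6 members that did not pass had differences between −0.29 and −0.04.

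Of 20 tested genes for S phase chromatin 15 fell and none rose, against 3.42% of all genes that fell. In this list 18 had a negative difference (median −0.81, or −0.76 within PHX2 and −0.92 within PHX3). H2ax, the histone variant phosphorylated at DNA breaks, read 9.84, 9.71, 8.93 and 8.29 in Cre minus livers and 6.40, 6.79, 6.90, 7.36 and 7.28 in Cre plus livers. The groups were separate in every liver, although the difference of −2.24 (SE 0.28, adjusted p = 3.28e-06) was smaller within PHX2 (−0.97 within PHX2 and −2.80 within PHX3). The condensin subunits Smc2 and Smc4, which compact chromosomes, fell by 1.86 and 1.71. Smc2 read 4.64, 5.99, 5.62 and 5.50 in Cre minus livers and 3.48, 3.29, 3.82, 3.37 and 3.88 in Cre plus livers, with Cre minus A the nearest to the Cre plus group. The histone variants H2az1 (−1.89) and H2az2 (−1.26) and Uhrf1 (−1.31), which directs maintenance of DNA methylation, also fell, and the 5 adjusted p-values of these genes and the condensins lay between 2.74e-09 and 0.0035.

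**Figure D2:**
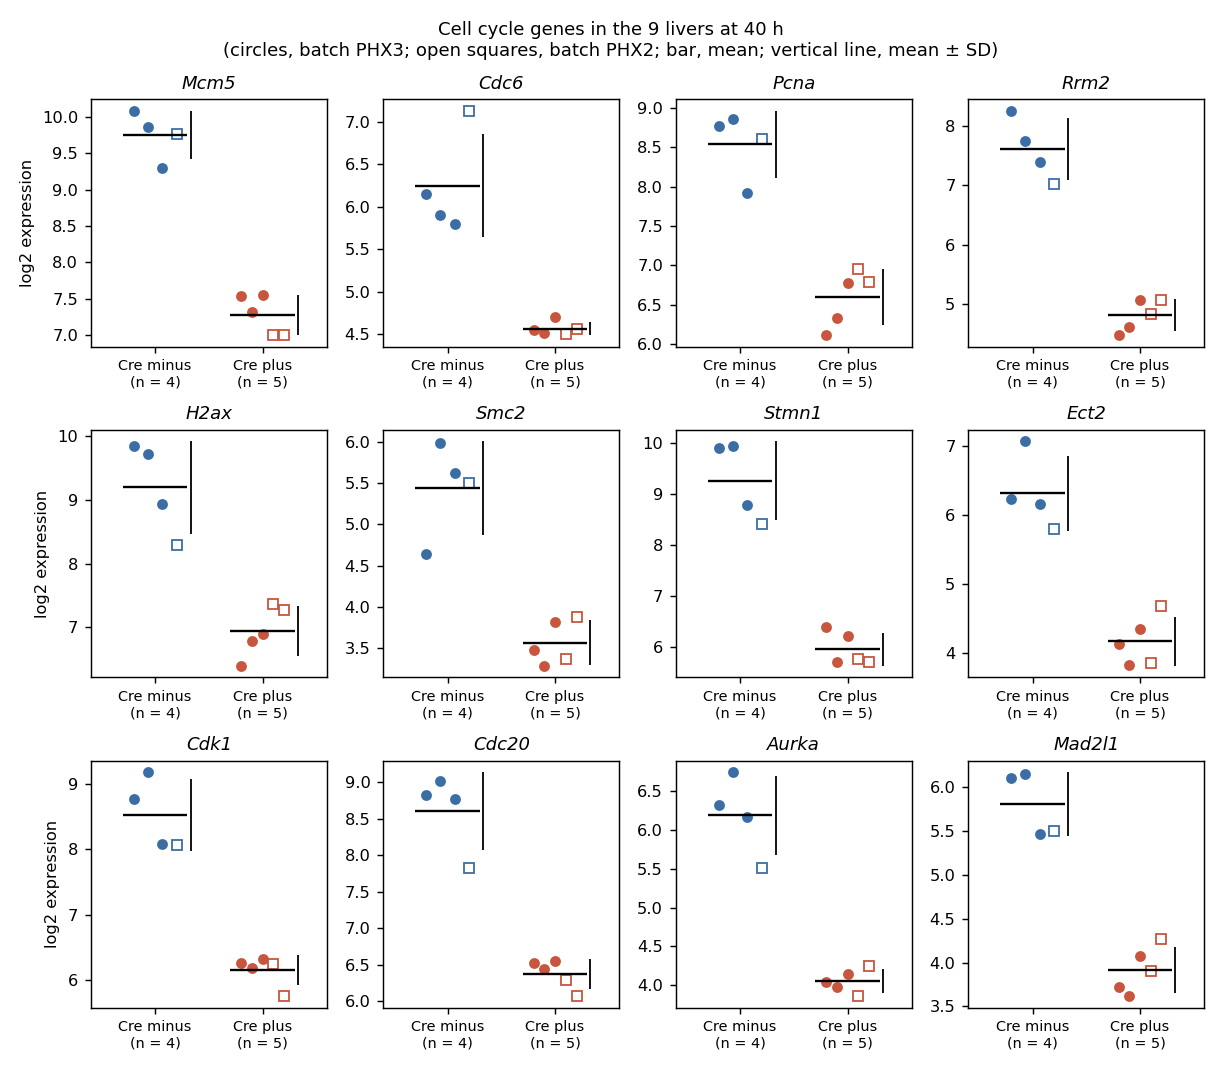
Log2 expression (vertical axes) of 12 cell cycle genes in 4 Cre minus livers and 5 Cre plus livers at 40 h, 1 point for each liver (filled circles PHX3, open squares PHX2), with the mean as a bar and mean ± SD as a vertical line. No Cre plus liver reached the lowest Cre minus liver in any of the 12 panels.

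Mitotic cyclins, kinases and checkpoint genes fell as well. Of 23 tested members 16 fell and none rose, against 3.42% of all genes that fell. All 23 had a negative difference, with a median of −0.82 (−0.52 within PHX2 and −0.90 within PHX3). Cdk1, the kinase that drives entry into mitosis, read 8.78, 9.19, 8.08 and 8.07 in Cre minus livers and 6.25, 6.17, 6.31, 6.25 and 5.75 in Cre plus livers. At 0 h its means were 6.24 in Cre minus livers and 5.86 in Cre plus livers, so the Cre plus livers at 40 h stood near the level before surgery. The difference at 40 h was −2.38 (SE 0.23, adjusted p = 4.33e-08), or −2.07 within PHX2 and −2.43 within PHX3.

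Cdc20, which activates the ubiquitin ligase that ends metaphase, read 8.83, 9.02, 8.77 and 7.83 in Cre minus livers and 6.52, 6.44, 6.55, 6.28 and 6.06 in Cre plus livers, a difference of −2.23 (SE 0.18, adjusted p = 3.83e-09). The lowest Cre minus value was that of liver D, and the difference was −1.65 within PHX2 and −2.37 within PHX3. Aurka, the kinase of spindle poles, read 6.33, 6.75, 6.17 and 5.52 in Cre minus livers and 4.04, 3.97, 4.15, 3.85 and 4.25 in Cre plus livers, a difference of −2.13 (SE 0.18, adjusted p = 7.36e-09). Mad2l1, a component of the spindle checkpoint, read 6.11, 6.15, 5.47 and 5.51 in Cre minus livers and 3.72, 3.61, 4.08, 3.90 and 4.27 in Cre plus livers, a difference of −1.89 (SE 0.16, adjusted p = 4.81e-09). Neither gene's groups overlapped. The centrosome kinase Nek2 fell by 1.53 (adjusted p = 4.33e-08), Birc5, a subunit of the chromosomal passenger complex, by 1.5 (adjusted p = 3.12e-09) and cyclin A gene Ccna2 by 0.82 (adjusted p = 4.66e-07). Mki67, a common marker of proliferating cells, differed by −0.27 and did not pass (adjusted p = 0.342). Its probe set read low, at 5.01 ± 0.23 in Cre minus livers and 4.76 ± 0.19 in Cre plus livers (SD).

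Genes of the spindle and cytokinesis were lower as well, with 12 of 17 tested members called lower and none higher, against 3.42% of all genes that fell. In this list 16 differences were negative, with a median of −0.78 (−0.39 within PHX2 and −0.77 within PHX3). Stmn1, which encodes the microtubule-destabilising protein stathmin, read 9.90, 9.93, 8.77 and 8.42 in Cre minus livers and 6.39, 5.70, 6.21, 5.75 and 5.70 in Cre plus livers. The difference of −3.29 (SE 0.30, adjusted p = 3.38e-08) stands for a 9.78-fold lower level, and was −2.69 within PHX2 and −3.44 within PHX3. A second Stmn1 probe set, far dimmer in Cre minus livers, gave 0.12 and was not called. Ect2, the exchange factor that starts furrow ingression, read 6.23, 7.07, 6.17 and 5.79 in Cre minus livers and 4.13, 3.83, 4.35, 3.86 and 4.68 in Cre plus livers, a difference of −2.12 (SE 0.21, adjusted p = 1.06e-07). The kinesin Kif2c, DNA topoisomerase gene Top2a, the midzone bundling protein gene Prc1 and the actin-binding protein gene Anln fell by 1.33, 1.22, 1.21 and 1.19, all with adjusted p-values of 2.14e-05 or less. For Prc1 and Anln the difference was smaller within PHX2, at −0.58 and −0.50, than within PHX3, at −1.40 and −1.47. D17H6S56E-5, named as in the annotation, had the lowest difference of all genes other than Rps6, with 8.59, 7.62, 7.63 and 6.28 in Cre minus livers and 3.73, 3.82, 4.09, 3.93 and 4.85 in Cre plus livers (−3.41, SE 0.47, adjusted p = 1.91e-05, −1.89 within PHX2 and −4.06 within PHX3).

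The promoters of 4 genes that fell (Cdk1, Cdc20, Cdc6 and Pcna) and 2 that rose (Eif5 and Ifrd1) are shown for their sequence elements. The sequences are the 150 bases before the start site from RefSeq (GRCm38.p6), with capitals marking matches on either strand to CHR (TTTGAA), the CCAAT box (CCAAT) or E2F (TTCCCGC or TTGGCGC), of which the second E2F form, read on the other strand, can share letters with CCAAT.
Cdk1: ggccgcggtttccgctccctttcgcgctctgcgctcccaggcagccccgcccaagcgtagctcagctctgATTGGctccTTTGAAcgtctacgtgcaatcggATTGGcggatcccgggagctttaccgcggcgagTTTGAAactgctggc
Cdc20: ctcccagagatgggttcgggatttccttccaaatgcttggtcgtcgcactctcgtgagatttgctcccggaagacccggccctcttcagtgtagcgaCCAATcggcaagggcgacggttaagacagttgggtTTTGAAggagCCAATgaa
Cdc6: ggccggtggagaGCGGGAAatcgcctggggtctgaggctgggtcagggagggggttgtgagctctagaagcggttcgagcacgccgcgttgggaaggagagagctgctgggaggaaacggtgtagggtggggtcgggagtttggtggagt
Pcna: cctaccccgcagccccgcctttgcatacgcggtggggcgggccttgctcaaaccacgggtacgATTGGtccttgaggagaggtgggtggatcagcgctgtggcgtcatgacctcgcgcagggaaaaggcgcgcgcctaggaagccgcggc
Eif5: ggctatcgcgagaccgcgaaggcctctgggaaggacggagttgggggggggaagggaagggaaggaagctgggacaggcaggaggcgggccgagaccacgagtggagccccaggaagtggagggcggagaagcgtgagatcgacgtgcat
Ifrd1: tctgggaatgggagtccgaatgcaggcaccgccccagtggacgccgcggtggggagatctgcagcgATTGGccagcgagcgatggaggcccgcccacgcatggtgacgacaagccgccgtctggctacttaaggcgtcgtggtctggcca
They lie at chr10:69352913-69353062 on the minus strand for Cdk1, chr4:118437344-118437493 on the minus strand for Cdc20, chr11:98908001-98908150 on the plus strand for Cdc6, chr2:132253181-132253330 on the minus strand for Pcna, chr12:111537951-111538100 on the plus strand for Eif5 and chr12:40223190-40223339 on the minus strand for Ifrd1, each printed 5′ to 3′ on its own strand. Cdk1 and Cdc20, genes of mitosis, hold CHR and CCAAT letters close together. In Cdc6, a gene of origin licensing, the capitals mark E2F letters alone. Pcna, a replication gene that fell, and Ifrd1, which rose, each hold a CCAAT box and neither of the other elements in this window. Eif5, an initiation factor gene that rose, holds none of the 3, so the windows shown do not sort by direction on CCAAT letters.

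The same search ran over all 32851 promoters of the table, each a window of 300 bases that runs from 250 before to 50 after the start. CHR letters were in 17.9% of them, CCAAT in 37.4%, E2F in 6.81%, and CHR with CCAAT in 6.95%. The 40 tested members of the 2 mitosis lists (mitotic cyclins and kinases, spindle and cytokinesis) matched 35 promoters of 32 genes, of which 24 held both CHR and CCAAT (68.6%) and 4 held E2F letters (11.4%). The 69 tested members of the 4 DNA replication lists (licensing, fork, deoxynucleotide supply and S phase chromatin) matched 73 promoters of 60 genes, of which 27 held E2F letters (37%) and 8 both CHR and CCAAT (11%). Of all 232 genes that fell, 191 had a promoter in the table, some more than 1, and the shares here are of promoters, not of genes. Among the promoters of these genes, 15.3% held CHR and CCAAT together and 28.4% held E2F letters. Of the 163 genes that rose, 132 had a promoter in the table. Among their promoters, 0.606% (1 promoter) held CHR and CCAAT together and 9.09% held E2F letters. Among the promoters of all genes tested the shares were 4.99% and 11.1%. A match is a description of letters in the window, not of a bound factor.

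Upstream of S phase, regulators of G1 and of the E2F-Rb pathway fell in part. Of 17 tested members 8 fell and none rose, against 3.42% of all genes that fell (list median −0.29, or −0.40 within PHX2 and −0.19 within PHX3). Without Cre minus A 4 members fell. Tfdp1, the dimerisation partner of E2F factors, read 8.16, 7.90, 7.28 and 7.70 in Cre minus livers and 6.79, 6.65, 7.06, 5.61 and 6.99 in Cre plus livers, of which D was the lowest. Its difference was −1.11 (SE 0.26, adjusted p = 0.00755). Cdkn2c, an inhibitor of the D-type cyclin kinases, differed by −0.95 (SE 0.13, adjusted p = 9.9e-06), and Rbl1, a pocket protein related to Rb, by −0.79 (SE 0.12, adjusted p = 0.000103). The call of E2f8, an atypical E2F (−0.96), was lost without any of Cre minus A and C and Cre plus A, B, C and E (adjusted p up to 0.146), and its second probe set gave −1.12 without passing (adjusted p = 0.0721). E2f1 (−0.40) lost its call without any of Cre minus A, C and D and Cre plus B (adjusted p up to 0.0931), and Cdc25a (−0.37), the phosphatase that activates cyclin-dependent kinases, without Cre minus A (adjusted p = 0.0599). Cyclin D1 gene Ccnd1 read 8.49, 8.58, 8.21 and 8.97 in Cre minus livers and 8.58, 7.94, 8.92, 6.57 and 8.96 in Cre plus livers. Apart from Cre plus D the ranges overlapped, the difference of −0.29 did not pass (adjusted p = 0.854), and it was −1.21 within PHX2 and 0.05 within PHX3. Ccne1, which encodes cyclin E, differed by −0.14 (adjusted p = 0.489). Among 16 tested genes of DNA repair, the checkpoint kinase gene Chek2 (−0.44) and Brca2 (−0.35) fell, with adjusted p-values of 0.00131 and 0.00645. The list median was −0.03. Of 9 tubulin genes Tuba1a alone fell (−0.60, adjusted p = 0.0366), its call was lost without any of Cre minus A, B, C and D and Cre plus A, B, C and D (adjusted p up to 0.0994), and a dimmer probe set gave −0.20 without passing.

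For part of the cell cycle genes the difference at 40 h was larger than that at 0 h, and for fewer it was larger than that at 30 h. The genotype difference at 40 h minus that at 0 h passed for 54 probe sets, all of them negative, and for 46 genes (0.678% of those tested). Of the lists above, it passed for 10 of 23 mitotic cyclins and kinases, 8 of 17 spindle genes, 7 of 20 S phase chromatin genes, 5 of 24 fork genes, 4 of 15 licensing genes, 2 of 10 deoxynucleotide genes and 1 of 17 G1 genes. It was −2.63 (SE 0.44, adjusted p = 0.00141) for Stmn1 and −2.35 (SE 0.38, adjusted p = 0.00101) for Rrm2. For D17H6S56E-5 it was −3.07 (SE 0.68, adjusted p = 0.0266), a call lost without any of Cre minus A, B and C and Cre plus A and B (adjusted p up to 0.0897). In Stmn1, the Cre minus mean went from 6.48 at 0 h through 7.17 at 30 h to 9.26 ± 0.78 at 40 h (SD), and the Cre plus mean from 5.82 through 5.93 to 5.95 ± 0.33.

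Against 30 h, the difference at 40 h was more negative for 18 probe sets and 16 genes (0.236% of those tested) and more positive for 1. The 18 became 9 without Cre minus A or without Cre minus B, 11 without Cre plus A or without Cre plus B, and 46 without Cre minus D. Mitotic cyclins and kinases held 8 of the 16 genes, while no member of the replication fork or deoxynucleotide lists passed. Cdc20 gave −1.83 (SE 0.27, adjusted p = 0.00149), with a mean of 6.74 in Cre minus livers and 6.34 in Cre plus livers at 30 h. Aurka gave −1.64 (SE 0.27, adjusted p = 0.00336) and Mad2l1 −1.27 (SE 0.24, adjusted p = 0.015). In each of these 3 genes the Cre minus mean was at least 1 log2 unit higher at 40 h than at 30 h, and the Cre plus mean was not. The gene on the positive side was Mxd4, a Myc antagonist of the Max network (0.88, SE 0.18, adjusted p = 0.0271), whose call was lost without Cre minus A or B (adjusted p up to 0.0884). Its Cre minus livers read 7.27, 7.47, 7.46 and 8.14 at 40 h after a mean of 8.29 at 30 h, and its Cre plus livers 7.64, 7.65, 7.66, 8.32 and 8.52 after 7.79. At 40 h itself Mxd4 did not differ past the threshold (0.29, adjusted p = 0.176).

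**Figure D3:**
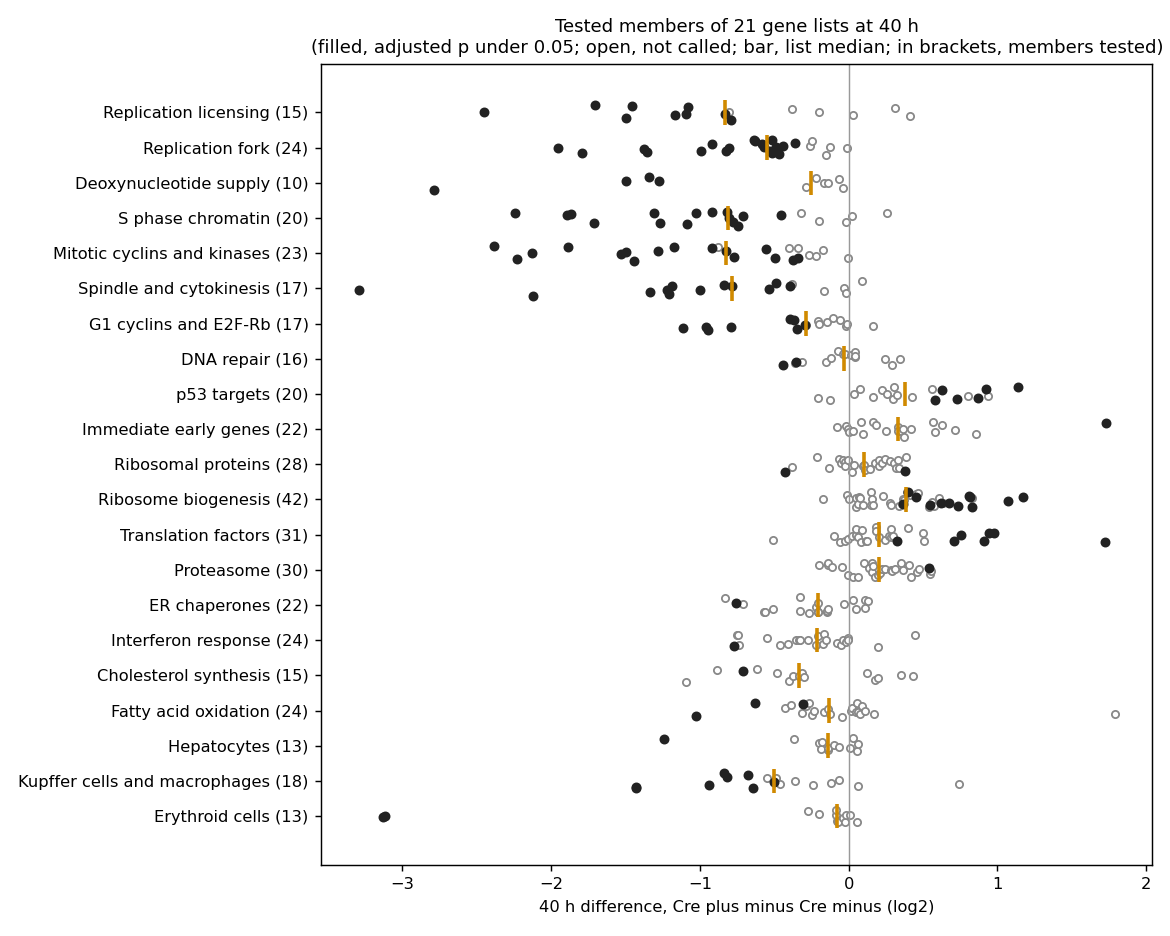
Differences at 40 h (horizontal axis, Cre plus minus Cre minus, log2) of the tested members of 21 gene lists (1 line each, with the number tested in brackets), filled where the adjusted p was under 0.05, with the list median as an orange tick. Filled points of the cell cycle lists lie left of 0, and those of p53 targets, ribosome biogenesis and translation factors lie right of it.

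Genes of ribosome production and translation were among those that rose. Of 42 tested ribosome biogenesis factors 12 rose and none fell, against 2.4% of all genes that rose, and 40 had a positive difference (median 0.38, or 0.33 within PHX2 and 0.44 within PHX3). In 16 of them the Cre plus livers all lay above the Cre minus livers, a separation that 3.4% of all genes showed in this direction. The count was sensitive to single livers: it was 4 without Cre minus A, 5 without Cre minus C and 6 without Cre plus B or Cre plus E, and 12 without Cre plus D. Ncl, which encodes the nucleolar protein nucleolin, read 7.71, 8.21, 8.02 and 8.34 in Cre minus livers and 8.56, 9.82, 8.77, 9.20 and 9.96 in Cre plus livers. The lowest Cre plus liver lay above the highest Cre minus liver, with a difference of 1.17 (SE 0.24, adjusted p = 0.0035), or 1.24 within PHX2 and 1.07 within PHX3. Wdr43, a component of the small subunit processome, differed by 0.74 (SE 0.15, adjusted p = 0.00243), and its second probe set was called too (0.55).

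Eif6, which keeps free large subunits from joining small ones, read 8.0, 8.17, 7.99 and 8.45 in Cre minus livers and 8.63, 9.86, 8.83, 9.03 and 9.77 in Cre plus livers, a difference of 1.07 (SE 0.27, adjusted p = 0.0158). Its call was lost without any of Cre minus A and C and Cre plus B and E (adjusted p up to 0.0602). Gnl3, the nucleolar GTPase nucleostemin (0.82), lost its call without any of Cre minus A, C and D and Cre plus B (adjusted p up to 0.0727), the large subunit factor Ebna1bp2 (0.81) without any of Cre minus A, B and C and Cre plus B and E (adjusted p up to 0.0946), and the small subunit factor Tsr1 (0.83) without any of Cre minus A, B and C and Cre plus B, C and E (adjusted p up to 0.133). As a list, ribosome biogenesis stood above its 0 h level at 20 h in both genotypes. Its mean level was 6.85 ± 0.06 at 0 h and 7.30 ± 0.21 at 20 h in Cre minus livers, and 6.92 ± 0.07 and 7.45 ± 0.16 in Cre plus livers (SD over livers). By 40 h it was 6.97 ± 0.07 in Cre minus livers and 7.38 ± 0.13 in Cre plus livers, so the genotypes stood apart at a time when the Cre minus mean was again close to its 0 h value. No member passed the test of the 40 h difference against that at 0 h or at 30 h.

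Of 31 tested translation factors 7 rose and none fell, against 2.4% of all genes that rose (list median 0.20, or 0.09 within PHX2 and 0.23 within PHX3). Eif5, which triggers GTP hydrolysis once the start codon is found, read 7.43, 8.08, 7.40 and 7.80 in Cre minus livers and 9.24, 9.33, 9.30, 9.74 and 9.42 in Cre plus livers. Every Cre plus liver exceeded every Cre minus liver, and the difference of 1.72 (SE 0.20, adjusted p = 1.5e-06) was 1.79 within PHX2 and 1.66 within PHX3. Its means at 0 h were 8.10 in Cre minus livers and 8.63 in Cre plus livers, so at 40 h the Cre minus livers lay below and the Cre plus livers above the level before surgery. Eif4g2, a scaffold related to eIF4G, differed by 0.94 (SE 0.21, adjusted p = 0.00683), and Etf1, the factor that recognises stop codons, by 0.91 (SE 0.16, adjusted p = 0.000574). Etf1 has 5 probe sets, of which 2 were called, both higher, and the dimmest gave −0.10. The paralogues Eif1ax (0.75, adjusted p = 0.00169) and Eif1a (0.97, adjusted p = 0.0137) encode near-identical initiation factors that probes may not separate, and the call of Eif1a was lost without any of Cre minus A and C (adjusted p up to 0.0583). Each has a dimmer probe set that was not called, at 0.04 for Eif1ax and 0.89 for Eif1a. The poly(A)-binding protein gene Pabpc1 differed by 0.71 (adjusted p = 0.00463).

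Ribosomal protein genes other than Rps6 changed little: of 28 tested, Rps19 rose by 0.38 and Rpl32 fell by 0.43, and the list median was 0.11. Rps19, like Rps6 a protein of the small subunit, read 9.42, 9.70, 9.30 and 9.48 in Cre minus livers and 9.87, 9.93, 9.95, 9.58 and 9.90 in Cre plus livers, with Cre plus D inside the Cre minus range, and its call (adjusted p = 0.013) was lost without any of Cre minus A and C (adjusted p up to 0.0753). The call of Rpl32 (adjusted p = 0.0132) was lost without Cre minus A (adjusted p = 0.0567). Both genes belong to families with many processed pseudogenes, so their probe sets may be shared. Of 30 proteasome genes Psma6 rose (0.54, adjusted p = 0.0158), a call lost without any of Cre minus A and C and Cre plus B and E (adjusted p up to 0.0956), and the median was 0.20.

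**Figure D4:**
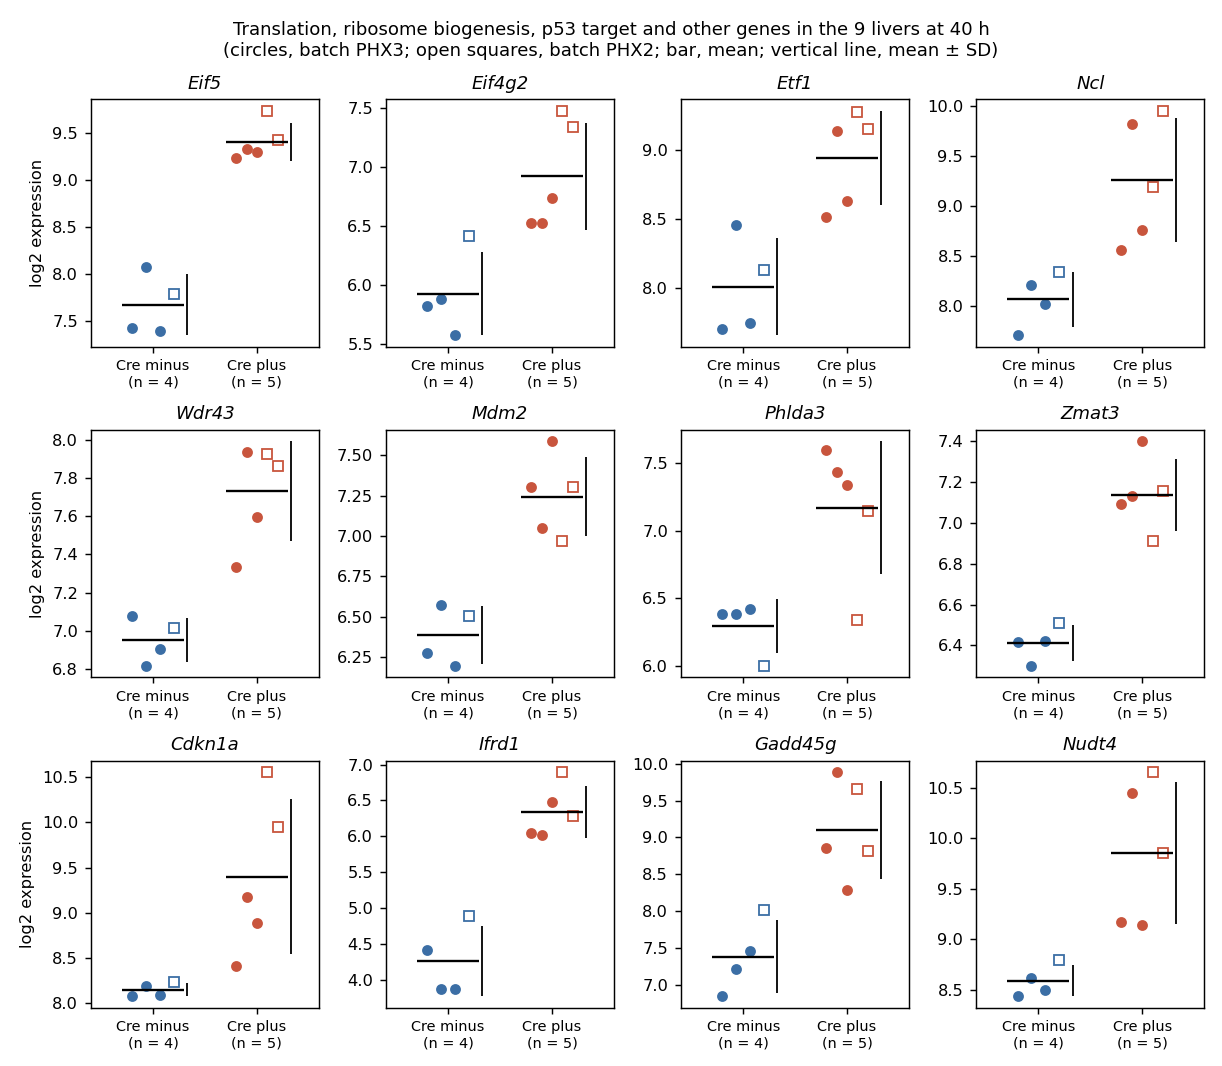
Log2 expression (vertical axes) of 12 genes that were higher in Cre plus livers at 40 h, 1 point for each of the 4 Cre minus livers and 5 Cre plus livers (filled circles PHX3, open squares PHX2), with the mean as a bar and mean ± SD as a vertical line. Cre plus D stands highest in the Cdkn1a, Ifrd1 and Eif5 panels and lowest of its group in the Phlda3, Mdm2 and Zmat3 panels.

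Several targets of p53 were higher. Of 20 tested members 6 rose and none fell, against 2.4% of all genes that rose. In this list 18 had a positive difference (median 0.38, or 0.42 within PHX2 and 0.34 within PHX3). In 5 of the 6 called members the groups did not overlap, the exception being Phlda3. Of all 20 tested, 6 separated in this direction, called or not, against 3.4% of all genes. The list mean was already higher before surgery, at 6.82 ± 0.02 in Cre minus livers and 7.15 ± 0.07 in Cre plus livers at 0 h, against 6.79 ± 0.04 and 7.24 ± 0.05 at 40 h (SD). No member passed the test of the 40 h difference against that at 0 h. Mdm2, the ubiquitin ligase that degrades p53 and is itself a p53 target, read 6.28, 6.57, 6.19 and 6.51 in Cre minus livers and 7.30, 7.05, 7.59, 6.97 and 7.30 in Cre plus livers. All 5 Cre plus livers lay above the 4 Cre minus livers, with a difference of 0.87 (SE 0.14, adjusted p = 0.000131), or 0.63 within PHX2 and 0.97 within PHX3.

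Phlda3, which restrains Akt signalling, read 6.38, 6.39, 6.42 and 6.00 in Cre minus livers and 7.59, 7.43, 7.34, 6.34 and 7.14 in Cre plus livers, where liver D of each genotype was the lowest of its group. Its difference was 0.92 (SE 0.17, adjusted p = 0.000711), or 0.74 within PHX2 and 1.06 within PHX3. Zmat3, an RNA-binding zinc finger protein, read 6.42, 6.30, 6.42 and 6.51 in Cre minus livers and 7.09, 7.13, 7.40, 6.91 and 7.16 in Cre plus livers, a difference of 0.73 (SE 0.12, adjusted p = 0.000138). Ephx1, which encodes microsomal epoxide hydrolase, rose by 0.63 (adjusted p = 0.00147) and the kinase gene Plk2 by 0.58 (adjusted p = 0.013). Cdkn1a, the cyclin-dependent kinase inhibitor, was the least even: it read 8.08, 8.19, 8.09 and 8.24 in Cre minus livers and 8.41, 9.18, 8.89, 10.56 and 9.95 in Cre plus livers. The 4 Cre minus livers lay within 0.2 of one another while the 5 Cre plus livers spread over 2 log2 units, from A to D. The difference was 1.14 (SE 0.33, adjusted p = 0.0424), or 2.02 within PHX2 and 0.71 within PHX3, and the call was lost without any of Cre minus A, B, C and D and Cre plus B, C, D and E (adjusted p up to 0.15), whereas a second probe set gave 1.76 (adjusted p = 0.00683). Ccng1, cyclin G1, had a difference of 0.80 and did not pass (adjusted p = 0.0738).

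Among the other genes with the highest differences was Ifrd1, a transcriptional coregulator, which read 4.41, 3.87, 3.87 and 4.89 in Cre minus livers and 6.05, 6.01, 6.47, 6.90 and 6.29 in Cre plus livers. All Cre plus livers exceeded all Cre minus livers by more than 1 log2 unit, and the difference was 2.04 (SE 0.30, adjusted p = 3.74e-05), or 1.70 within PHX2 and 2.13 within PHX3. Gadd45g, a stress-induced gene of the Gadd45 family, read 6.84, 7.21, 7.46 and 8.02 in Cre minus livers and 8.86, 9.89, 8.28, 9.66 and 8.81 in Cre plus livers (1.73, SE 0.39, adjusted p = 0.00637). It was the 1 called member of 22 immediate early genes tested, whose median was 0.33 (0.59 within PHX2 and 0.03 within PHX3). In that list the mean of Cre plus D, 7.81, stood above the other 8 livers, which lay between 6.58 and 7.07. Myc, a transcription factor of growth, read 3.85, 3.72, 3.98 and 4.28 in Cre minus livers and 4.56, 5.26, 4.19, 5.40 and 4.95 in Cre plus livers, and its difference of 0.85 did not pass (adjusted p = 0.192).

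Nudt4, a phosphohydrolase of inositol pyrophosphates, differed by 1.24 (SE 0.29, adjusted p = 0.0106) and Mtdh, the oncoprotein metadherin, by 1.07 (SE 0.19, adjusted p = 0.000812), although a dimmer Mtdh probe set was not called (0.43). Slc25a47, a mitochondrial carrier of hepatocytes, read 8.65, 9.98, 8.89 and 9.46 in Cre minus livers and 9.99, 12.16, 10.15, 12.30 and 11.56 in Cre plus livers. Its Cre plus livers formed no single level, the difference of 1.90 (SE 0.52, adjusted p = 0.0311) had a wide error, and the call was lost without any of Cre minus A, C and D and Cre plus B, D and E (adjusted p up to 0.11). Retreg1, an ER-phagy receptor, read 7.69, 7.90, 7.65 and 8.68 in Cre minus livers and 9.04, 9.84, 9.47, 11.23 and 8.60 in Cre plus livers (1.56, SE 0.47, adjusted p = 0.0497). In Cre plus E it read lower than in Cre minus D, and the call was lost without any of Cre minus A, B, C and D and Cre plus A, B, C and D (adjusted p up to 0.133). Pnpla2, the triglyceride lipase (1.09, adjusted p = 0.045), lost its call without any of Cre minus A, B, C and D and Cre plus A, B and D (adjusted p up to 0.15), and the phospholipase gene Pla2g12a (1.13, adjusted p = 0.0276) without any of Cre minus A, B and C and Cre plus B and D (adjusted p up to 0.107). A dimmer Pla2g12a probe set gave 0.91 without passing.

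Several macrophage markers were lower in Cre plus livers. Of 18 tested markers of Kupffer cells, the resident macrophages of the liver, and other macrophages 8 fell and none rose, against 3.42% of all genes that fell. In this list 16 had a negative difference (median −0.50, or −0.47 within PHX2 and −0.65 within PHX3). The mean level of the 18 ranged from 7.09 to 7.61 in Cre minus livers and from 6.64 to 7.01 in Cre plus livers at 40 h. In bulk tissue, fewer cells of a type and less RNA per cell cannot be told apart. Clec4f, a lectin of Kupffer cells, read 9.28, 8.46, 8.82 and 8.85 in Cre minus livers and 8.04, 6.93, 7.42, 7.40 and 7.31 in Cre plus livers. No Cre plus liver reached the lowest Cre minus liver, and the difference was −1.43 (SE 0.21, adjusted p = 5.8e-05), or −1.5 within PHX2 and −1.39 within PHX3. Cd5l, a secreted macrophage protein, read 8.90, 7.80, 8.39 and 8.32 in Cre minus livers and 7.97, 6.08, 7.09, 6.31 and 7.08 in Cre plus livers, where Cre plus A overlapped with Cre minus B, and differed by −1.43 (SE 0.32, adjusted p = 0.00581). The complement genes C1qb, C1qc and C1qa fell by 0.94, 0.84 and 0.81 and Csf1r, the receptor for macrophage colony-stimulating factor, by 0.68, with adjusted p-values between 0.000776 and 0.00649. A second, dimmer probe set of C1qb (−0.15) and of Csf1r (0.06) was not called. The list was already lower at 0 h, with a mean of 7.59 ± 0.12 in Cre minus livers and 7.21 ± 0.17 in Cre plus livers (SD), and no member passed the test of the 40 h difference against that at 0 h.

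**Figure D5:**
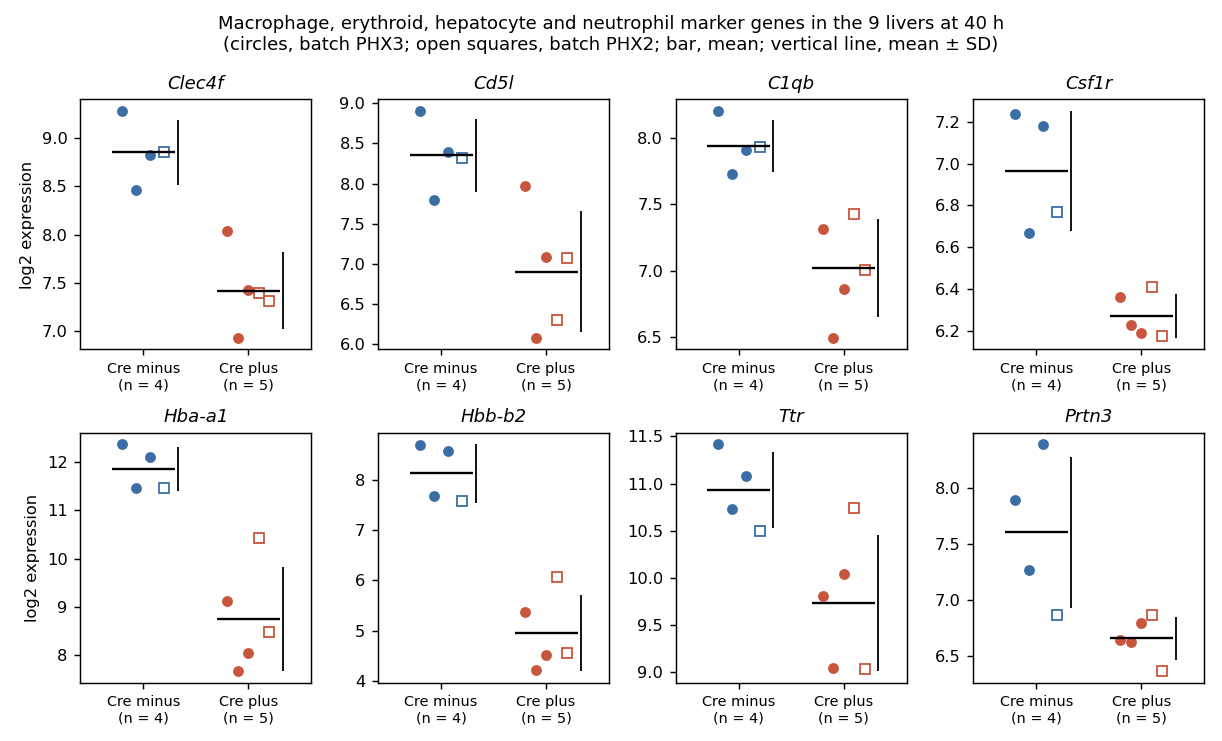
Log2 expression (vertical axes) of 8 marker genes of macrophages, erythroid cells, hepatocytes and neutrophils in 4 Cre minus livers and 5 Cre plus livers at 40 h, 1 point for each liver (filled circles PHX3, open squares PHX2), with the mean as a bar and mean ± SD as a vertical line. Both globin genes, Clec4f and, by a narrow margin, Prtn3 were lower in all 5 Cre plus livers than in any Cre minus liver, whereas Ttr in Cre plus D lay inside the Cre minus range.

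Globin genes were lower by a wide margin, while the other erythroid genes did not pass. Hba-a1 read 12.37, 11.46, 12.10 and 11.47 in Cre minus livers and 9.12, 7.67, 8.05, 10.43 and 8.49 in Cre plus livers (−3.12, SE 0.55, adjusted p = 0.000594), and Hbb-b2 read 8.69, 7.68, 8.58 and 7.58 and 5.38, 4.21, 4.52, 6.06 and 4.55 (−3.13, SE 0.53, adjusted p = 0.000341). The groups did not overlap in either gene, and Cre plus D was the highest of its group in both. Of 13 erythroid genes tested the other 11 did not pass and had differences between −0.27 and 0.05. The Cre minus means of Hba-a1 were 9.65 at 0 h and 11.85 ± 0.46 at 40 h (SD), and the Cre plus means 9.18 and 8.75 ± 1.08. Globin messenger RNA is also carried by blood left in the tissue, and its part in the result was not tested.

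Other cell types gave few calls. Of 13 hepatocyte genes Ttr, the thyroxine carrier transthyretin, fell (−1.24, adjusted p = 0.0227), a call lost without any of Cre minus A and C and Cre plus B and E (adjusted p up to 0.114), and Alb differed by −0.10 (adjusted p = 0.503). The neutrophil protease gene Prtn3 read 7.89, 7.26, 8.39 and 6.87 in Cre minus livers and 6.64, 6.62, 6.79, 6.86 and 6.36 in Cre plus livers and fell by 0.94 (adjusted p = 0.00313), 1 of 9 neutrophil genes. Its difference was −0.26 within PHX2 and −1.16 within PHX3. Ptprb, an endothelial phosphatase gene, rose (0.47, adjusted p = 0.0222), 1 of 13 endothelial genes, and lost its call without any of Cre minus B and D and Cre plus E (adjusted p up to 0.101). None of 10 MHC class II genes, 9 genes of T and NK cells, 8 of B cells, 14 of stellate cells and fibroblasts, 4 of cholangiocytes, 2 of platelets, 3 of adipocytes and 4 of pancreatic acinar cells passed, at list medians between −0.16 and 0.08.

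Signals and hepatic functions that surround regeneration showed few differences past the threshold. Of 23 regeneration signals none passed. Igfbp1, an insulin-like growth factor binding protein induced in regenerating and stressed liver, read 6.66, 8.85, 6.87 and 7.0 in Cre minus livers and 7.71, 9.88, 8.53, 9.92 and 8.49 in Cre plus livers, a difference of 1.63 (adjusted p = 0.108). Inhbc, an activin subunit of hepatocytes, differed by −0.67 (adjusted p = 0.0662). Alpha-fetoprotein gene Afp, a marker of fetal liver, differed by −0.02 (adjusted p = 0.965), and none of 11 fetal liver genes passed. Of 24 interferon response genes, which bear on the inducing injection, 22 had a negative difference and 2 a positive one. The list median was −0.21 (0.05 within PHX2 and −0.46 within PHX3). Psmb8, a subunit of the immunoproteasome, alone passed the threshold (−0.77, adjusted p = 0.0487). That call was lost without any of Cre minus A, B and C and Cre plus B and E (adjusted p up to 0.217).

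Metabolic genes were called singly. Fabp1, the fatty acid binding protein of hepatocytes, read 12.57, 12.49, 12.47 and 12.81 in Cre minus livers and 11.94, 11.38, 11.39, 11.67 and 11.43 in Cre plus livers, without overlap, and fell by 1.03 (adjusted p = 0.0111). With Hadh (−0.63) and Acaa2 (−0.31), enzymes of mitochondrial β-oxidation, it made 3 of 24 genes of fatty acid oxidation that fell, against 3.42% of all genes. The count was 1 without Cre minus A or without Cre plus B. Of the 24, 14 had a negative difference and 10 a positive one. The list median was −0.13, with opposite signs within PHX2 (−0.58) and PHX3 (0.13). Hadh lost its call without any of Cre minus A and Cre plus B (adjusted p up to 0.0765) and Acaa2 without any of Cre minus A and D and Cre plus B and D (adjusted p up to 0.154). Sec61b, part of the channel into the endoplasmic reticulum, fell by 0.76 (adjusted p = 0.00645), 1 of 22 genes for chaperones and translocation. Single calls also came from lists on ATF4 targets (Ddit3 0.56 and Mthfd2 −0.49, of 14), cholesterol synthesis (Ebp −0.71, of 15), lipogenesis (Fads1 −0.82, of 13), cytochrome P450 enzymes (Cyp2d10 0.31, of 20), gluconeogenesis and glycolysis (Pcx 0.46, of 15) and the acute phase (Hamp 0.82, of 21). Each of these 7 calls was lost when some single liver was left out. Ddit3 lost it without any of Cre minus A, C and D (adjusted p up to 0.0612), Mthfd2 without any of Cre minus A, C and D and Cre plus B (adjusted p up to 0.0889) and Ebp without any of Cre minus A, B, C and D and Cre plus B and E (adjusted p up to 0.126). Fads1 lost it without any of Cre minus A and C and Cre plus A, B and E (adjusted p up to 0.149), Cyp2d10 without any of Cre minus B and C and Cre plus B and E (adjusted p up to 0.109), Pcx without any of Cre minus A, B and C and Cre plus A, B, C and E (adjusted p up to 0.13) and Hamp without any of Cre minus A, B and C and Cre plus A, B, C and E (adjusted p up to 0.118). Dimmer probe sets of Fabp1 (−0.21), Mthfd2 (0.06) and Pcx (−0.01) were not called. None of 20 NRF2 targets, 13 bile acid genes, 23 genes of the urea cycle and amino acid catabolism, 13 clock genes, 36 respiratory chain genes and 17 hepatocyte transcription factors passed.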

How the data were processed

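Per the submitters' processing notes, the authors made the deposited values with RMA (version not given in the sources used here), and they are log2 expression per probe set. The table held 12488 probe sets, of which 66 were controls. Of the other 12422, 10833 had 1 gene symbol, 396 several and 1193 none, from the platform annotation with symbols updated by gene ID. Array medians lay between 5.88 and 5.99 and no further normalization was applied. Probe sets above the 30th percentile of an array on at least 3 of the 32 arrays were tested (9249). A probe set bright only in the 4 Cre minus livers of 40 h could enter by this rule. The stricter filter named below asked for values above the array median on at least 4 arrays. A model with 8 groups (genotype by time) and the batch PHX2 or PHX3 as a term was fitted to all 32 arrays in limma 3.58.1 (lmFit and eBayes) under R 4.3.3, with Benjamini-Hochberg adjustment over all tested probe sets and 0.05 as threshold. All adjusted p-values in the text are limma's. The probe set with the highest mean stood for a gene, and only single-gene probe sets were named. The difference at 40 h was also set against that at 0 h and at 30 h within the same model.

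Genes named were Rps6, a short set of regeneration, p53 and cell cycle genes, the 12 called genes at either end of the 40 h difference with the same sign in both batches, up to 6 called members of each list, Igfbp1 and Inhbc from the regeneration list, and the 3 called at either end of each difference from another time. For lists with no call, members are given as counts. The members and the lists were chosen with earlier results of these data known. On simulated data of the same size for the 40 h comparison, 90 of 100 probe sets changed by 1 log2 unit and 100 of 100 changed by 2 were called, with 12 false calls. The simulated noise was independent between probe sets and alike in all groups, without a batch effect. In the data, Cre plus arrays at 40 h correlated less with their group than Cre minus arrays did. These simulated counts may therefore not carry over to the livers. The number of arrays limits the precision. Alternatives covered the arrays, batch, array weights, normalization, filter and single livers.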

Additional observations from a re-analysis of the deposited data

Results flagged for a closer look

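In each group of 4 or 5 livers, Dixon's test was applied to the highest and lowest liver of 108 genes (216 combinations), and 12 lay outside its 95% limit. Chance puts about 1 in 20 groups outside. Cre plus D accounted for 6 of the 12. It was low for the clamp loader gene Rfc4 (3.49, next liver 3.77), Tfdp1 (5.61, next 6.65), Rps19 (9.58, next 9.87) and Pcx (8.29, next 8.97), and high for Anln (4.53, next 3.92) and E2f8 (6.20, next 4.74). The other 6 came from 6 different livers. Cdk1 was low in Cre plus E (5.75, next 6.17) and Alb low in Cre plus A (13.35, next 13.65). Prc1 was high in Cre plus C (5.85, next 5.66). Among Cre minus livers, Mcm7 was low in C (7.72, next 8.31), Phlda3 low in D (6.00, next 6.38) and Igfbp1 high in B (8.85, next 7.0). Without Cre plus D the genotypes differed at 449 probe sets, against 495 with it.

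The genotype difference at 40 h departed from that at another time in 7 named genes. Against 0 h it was more negative for D17H6S56E-5 (−3.07), Stmn1 (−2.63) and Rrm2 (−2.35), with limma's adjusted p of 0.0266, 0.00141 and 0.00101. Against 30 h it was more negative for Cdc20 (−1.83, adjusted p = 0.00149), Aurka (−1.64, adjusted p = 0.00336) and Mad2l1 (−1.27, adjusted p = 0.015), and more positive for Mxd4 (0.88, adjusted p = 0.0271). Stmn1, Rrm2, Cdc20, Aurka and Mad2l1 passed without each liver of 40 h in turn, although for Mad2l1 limma's adjusted p reached 0.0488 without Cre minus A. D17H6S56E-5 lost its call in 5 of these 9 subsets and Mxd4 in 2.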

How the results depend on the processing

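Against 495 probe sets called, there were 195 calls with the 40 h arrays alone (63 higher, 132 lower, 178 shared with the 495), 12 with PHX2 arrays alone (1 higher, 11 lower, 10 shared) and 861 with array weights (450 higher, 430 shared). Without the arrays that correlated under 0.95 with their own group, the higher calls numbered 351. The total stayed within 1.5 times of the main count with PHX3 arrays alone (431) and under every other normalization, filter or spread setting tried. The stricter filter still called fewer fork, chromatin, mitotic and spindle genes, as given below. Leaving out 1 liver gave 295 to 537 calls, 94 to 246 of them higher and 190 to 291 lower. The share of higher calls was 42.6% and was 32.3% with the 40 h arrays alone, 8.33% with PHX2 alone, 52.3% with array weights, 53% without the arrays under 0.95 and 29.6% without Cre minus C. It was 41.6% with arrays centred on their median and 38.5% with quantile normalization.

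Deviations from the group means correlated at r = 0.29 between the livers lettered B, and at 0.01, −0.03 and 0.03 for A, C and D, so not every pair deviated together and letters were not taken to pair them. A replicate block on the letter was fitted to the 40 h arrays alone, where Cre plus E has no Cre minus partner. It gave 69 calls, 14 higher and 55 lower (20.3% higher), against 195 for the same arrays with the batch term and no block. Of the 69, 64 were among the 495. The counts for this block below are likewise from the 40 h arrays alone. For the difference at 40 h against 0 h, 54 lower calls became 0 with PHX2 alone, 23 with PHX3 alone, 133 with array weights and 30 with the stricter filter. Against 30 h, 18 became 0, 2, 373 and 4 in that order, 120 without the arrays under 0.95 and 28 with quantile normalization, and 9 to 46 without 1 liver.

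A total of 5 genes turned sign, none past the threshold in that setting: Ccnd1 (0.0548 with PHX3 alone, 0.0667 with array weights, 0.0369 without the arrays under 0.95 and −0.561 to 0.0369 without 1 liver), Afp (0.0088 with PHX3 alone, 0.051 without the arrays under 0.95 and −0.0871 to 0.0626 without 1 liver), and with PHX2 alone Mki67 (0.0842), Alb (0.0091) and Psmb8 (0.0134). Of 65 called genes named as lower, 53 passed without each liver in turn, and of 33 named as higher 16 did. With the 40 h arrays alone 36 and 29 lost their call, with PHX2 alone 60 and 33, with PHX3 alone 8 and 10 and with the replicate block 34 and 27. By list, the 40 h arrays alone called 9 licensing genes (against 9 in the full model), 12 fork (against 19), 11 chromatin (against 15), 13 mitotic (against 16), 10 spindle (against 12), 2 G1 (against 8), 3 p53 target (against 6), 5 ribosome biogenesis (against 12), 3 translation (against 7) and 6 macrophage genes (against 8). PHX2 alone called 4 licensing genes, 1 chromatin gene and none in the other 8 of these lists, and the replicate block called 4, 3, 4, 8, 6, 1, 0, 0, 2 and 2 in the same order. Without Cre plus D, 10 licensing, 18 fork, 14 chromatin, 16 mitotic, 12 spindle, 7 G1, 6 p53 target, 12 ribosome biogenesis, 7 translation and 9 macrophage genes were called. With the stricter filter, under which 6834 probe sets were tested, the counts were 7, 12, 8, 11, 6, 7, 6, 11, 7 and 8 in the same order. The probe sets of Cdc6, Aurka, Mad2l1, Ect2 and Smc2 were among those it did not test. The cause of these shifts was not tested. PHX2 alone leaves 1 Cre minus liver at 40 h, which is assumed to vary like the other groups.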
